A study of Homo sapiens with 24 samples.

Results

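The replication-dependent histone genes are the clustered, mostly intronless genes that supply the H1, H2A, H2B, H3 and H4 proteins needed to package newly copied DNA. They were taken from the count files by symbol: H1-1 to H1-5, and every symbol made of H2AC, H2BC, H3C or H4C and a number. This gave 65 genes of 60641 symbols, namely 5 H1, 16 H2A, 17 H2B, 13 H3 and 14 H4 genes. The rule uses symbols only. As background, these genes are transcribed mainly in S phase, and most of their mRNAs end in a conserved stem-loop instead of a poly(A) tail. The stem-loop is bound by SLBP, and transcription and 3′ end processing take place at histone locus bodies that form around NPAT and CASP8AP2 (FLASH). The libraries were made from total RNA after ribosomal RNA removal, without poly(A) selection, so mRNAs with and without a tail could enter them.

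The study deleted the predicted DNA-binding domain (DBD) of 3 noncoding transcripts with CRISPR/Cas9 and compared RNA-seq before and after each deletion. MSTRG.2513.6 DBD KO and MSTRG.4401.1 DBD KO were made in A549, a line derived from a lung adenocarcinoma, and in HCT116, a line derived from a colorectal carcinoma. MSTRG.34636.7 DBD KO was made in HCT116. The unedited controls were A549 WT B, HCT116 WT B and HCT116 WT A, and each of the 8 groups held 3 libraries. The first 2 KOs were compared with WT B of the same line and MSTRG.34636.7 KO with WT A, so KOs of 1 line that share WT B also share its libraries. The sources used here do not say whether a group is 1 clone or whether its libraries are separate cultures, so p-values measure the spread between these libraries only. The deletions themselves were not checked in these counts.

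The sequence that defines the class was found next to nearly all of these genes. Within 150 bases after the stop codon, in GRCh38, a hairpin that starts with GG and has a stem of 6 bases and a loop of 4 starting with TT was found in 62 of 65 members with up to 1 mismatch, and in 60 with every stem base paired (92.31%). The same search found a fully paired stem in 9 of 19784 other protein-coding genes (0.045%). It began 23 to 68 bases after the stop codon, with a median of 36.5. The 4 commonest forms follow with the stem in capitals, because they separate the H4 genes from the rest. The first was in 38 members, H1-5, H2AC7 and H2AC17 among them. The second was in 9 members and the last in 4, all of them H4 genes.

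Stem-loop of 38 members: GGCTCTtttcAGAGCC

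Stem-loop of 9 H4 genes: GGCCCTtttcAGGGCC

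Stem-loop of 8 members: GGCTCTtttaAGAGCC

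Stem-loop of 4 members: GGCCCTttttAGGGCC

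The hairpin of H1-5 lies at chr6:27866797-27866812 and that of H4C8 at chr6:26285131-26285146. It was not found for H3C6, H2BC10 and H4C13 in this window.

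Promoters from the RefSeq table (GRCh38.p14, 250 bases before to 50 after the gene's start) were matched for 60 members. TATAAA was present on either strand in 41 of 60 (68.33%), against 11.83% of 27245 other promoters, and CCAAT in 51 of 60 (85%), against 35.59%. The octamer ATTTGCAT was present in 14 of 17 H2B and 11 of 15 H2A promoters and in 1.71% of other promoters. All 5 H1 promoters held AAACACA, which was in 5.744% of others. Of the 12 matched H4 promoters, 3 held CCAAT. The next windows of 30 bases carry the motif in capitals and belong to genes whose values stand out in what follows. The first is the bidirectional promoter of H2BC7 and H2AC7, whose promoter windows share 278 bases.

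H2BC7 (chr6:26199394-26199423, plus strand): agaatcacctaATTTGCATaccacagggca

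H1-3 (chr6:26235088-26235117, minus strand): taaggggcaacAAACACAgcagcgcggtag

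H1-5 (chr6:27867687-27867716, minus strand): tgaggactaacAAACACAatttgggagtcc

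H2AC17 (chr6:27893265-27893294, minus strand): tcagaaagctcATTTGCATtaagaggaagc

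H2BC13 (chr6:27807942-27807971, minus strand): cataaactattaTATAAAaagaggagaccg

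The members lie in 5 blocks, 1 on chromosome 1 (11 genes over 105.3 kb) and 4 on chromosome 6 (2, 31, 5 and 16 genes). Many genes encode the same protein. The 14 H4 genes encode 2 distinct proteins, 13 of them the same one, and the 13 H3 genes encode 2. The 16 H2A genes encode 10, the 17 H2B genes 13 and the 5 H1 genes 5. The coding sequences of H2AC18 and H2AC19, H3C14 and H3C15, H4C11 and H4C12, and H4C14 and H4C15 are identical pairwise, so the split of counts within each of these 4 pairs is uncertain. The annotated genes H3C12 (chr6:27890315-27893106) and H2AC17 (chr6:27892699-27893185) overlap on the minus strand, so the split between them may be uncertain too.

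The libraries held 25799359 to 102261808 counts, and levels are given as CPM, the counts scaled to a library total of 1000000. A count of 3 corresponds to 0.0293 to 0.116 CPM, and limits set by it cover counting error only. HCT116 MSTRG.2513.6 KO is the label of libraries S11, S8 and S9 (replicates 1, 2 and 3), of which S8 and S9 stood apart from S11 and from every other HCT116 library. ALDH1A1, an aldehyde dehydrogenase on the list of A549 line markers, was at 4324 and 4611 CPM in S8 and S9, at 5936 to 6347 CPM in A549 WT B and at 0 in S11. CDX2, an intestinal transcription factor, was at 0.636 and 0.406 CPM in S8 and S9, at 18.2 to 19.4 CPM in HCT116 WT B and at 18.2 CPM in S11. All 4 A549 line markers were higher in A549 WT B than in HCT116 WT B. The tissue markers went partly against the labels: NKX2-1, a lung factor, was at 0.265 CPM or less in A549 WT B, and 3 of 4 colon markers tested were higher in A549 WT B. Results that include S8 and S9 are therefore given with and without them.

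The 65 genes together took 0.256% to 1.20% of all counts. Their summed level was 10363, 10042 and 8547 CPM for A549 WT B and 7223, 7645 and 7484 CPM for HCT116 WT B. HCT116 WT A gave 8632, 7598 and 7288 CPM, which overlapped WT B. The highest sums were in HCT116 MSTRG.4401.1 KO (12020, 10683 and 11063 CPM) and the lowest group was HCT116 MSTRG.34636.7 KO (4043, 3901 and 4202 CPM). A549 MSTRG.2513.6 KO (9046, 8155 and 7497 CPM) and A549 MSTRG.4401.1 KO (9041, 5485 and 7801 CPM) both overlapped A549 WT B. For MSTRG.4401.1 KO this depended on the scaling. With library totals scaled by TMM factors its sums were 8793, 5236 and 7925 CPM, below A549 WT B at 8837 to 12189 CPM. MSTRG.2513.6 KO still overlapped. The lowest single library was S11 with 2561 CPM, while S8 and S9 had 9604 and 7659 CPM. In bulk RNA, fewer cells in S phase and less histone mRNA per cell cannot be told apart.

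**Figure D1:**
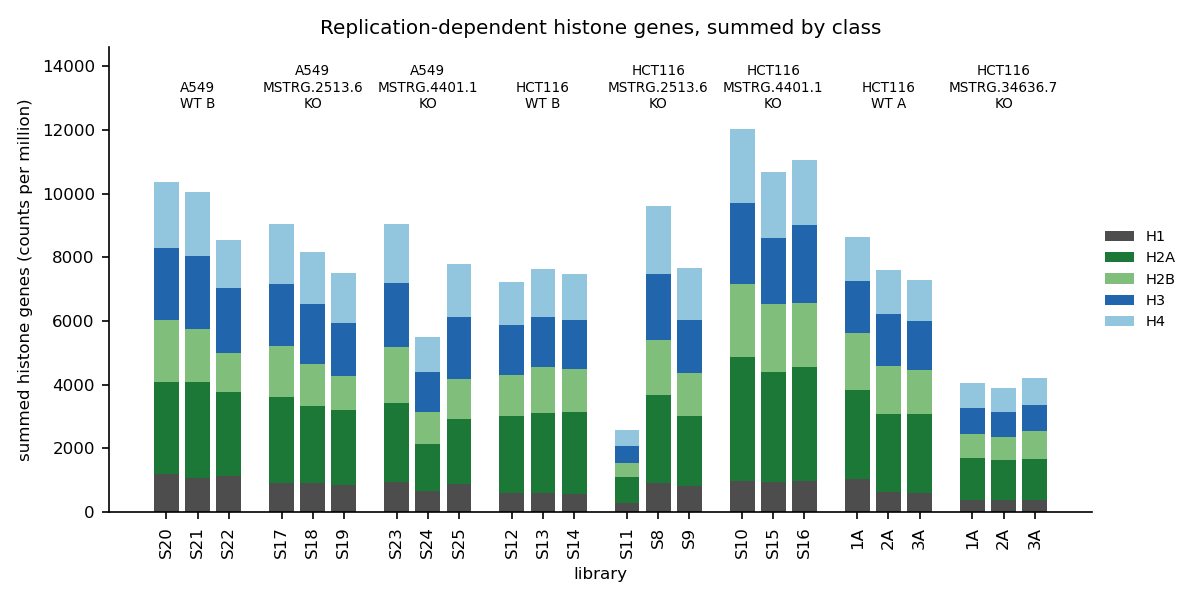
Summed CPM (y axis) of the 65 histone genes in each of the 24 libraries (x axis), stacked by class, with the libraries of a group side by side. HCT116 MSTRG.4401.1 KO lies above HCT116 WT B in every library, and MSTRG.34636.7 KO (3901 to 4202 CPM) below HCT116 WT A (7288 to 8632 CPM).

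The classes took unequal shares of the sum. H2A genes made up 29.5% ± 1.56 of the sum in A549 WT B and 33.6% ± 0.731 in HCT116 WT B (SD, n = 3). They made up 26.9% ± 0.575 in A549 MSTRG.4401.1 KO and 32.4% ± 0.156 in HCT116 MSTRG.4401.1 KO. The linker histones, H1, made up 11.8% ± 1.21 in A549 WT B and 7.96% ± 0.26 in HCT116 WT B.

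The level was carried by a minority of genes. Per kilobase of coding sequence, the highest H2A genes in A549 WT B were H2AC18 (1405 ± 50.1 CPM per kb) and H2AC19 (1404 ± 40.7), which did not differ beyond their spread and cannot be separated by sequence. H3C14 (1144 ± 38.6) and H3C15 (1087 ± 47.2) led H3, H4C14 (1002 ± 108) and H4C15 (998 ± 108), identical in coding sequence, led H4 ahead of H4C2 (916 ± 163), and H2BC18 (855 ± 158) and H2BC4 (597 ± 50) led H2B. The counts were per gene and not limited to coding sequence. The annotated spans of H2BC18, H2BC4, H4C14 and H4C15 were 29685, 37610, 7111 and 7115 bases, so their values per kb may be too high. Among linker histones the order was H1-3 (611 ± 34.5), H1-4 (548.7 ± 36.3) and H1-2 (475 ± 46.1). In HCT116 WT B, H1-3 was at 0 and others of these genes were at 1036 ± 18.3 (H2AC18), 824 ± 22.4 (H3C14), 763 ± 29.5 (H4C14), 548 ± 22.9 (H2BC18) and 538 ± 3.94 (H1-4). At the other end, 10 members had a mean below 1 CPM in all 8 groups: H1-1, H2AC1, H2AC8, H2AC15, H2BC1, H2BC8, H2BC9, H3C8, H4C6 and H4C7.

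Wild-type A549 and HCT116 used different sets of these genes. At 1 CPM or more in all 3 libraries, 53 members were present in A549 WT B and 45 in HCT116 WT B. Of the 55 present in either, 10 (18.18%) were present in A549 WT B and below 1 CPM in every HCT116 WT B library, against 6.335% of 18642 other genes. These were H1-3, H1-5, H2AC16, H2BC3, H2BC10, H3C3, H3C7, H3C11, H4C9 and H4C13. The opposite pattern was shown by H2AC7 and H3C4 (3.636%, against 8.154% of other genes). At 0.5 CPM the counts were 9 and 1, and at 5 CPM they were 11 and 3.

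H1-3, a linker histone, was the most abundant of these genes. It stood at 404, 383 and 429 CPM in A549 WT B, with no count in any library of HCT116 WT B or WT A. Against 3 counts per library it was at least 7904-fold higher in A549. H3C7, an H3 gene, was at 52.7, 58.4 and 46.3 CPM against 0, at least 1022-fold, and H3C11 was at 49.7, 44.4 and 32.4 CPM against 0, at least 822-fold. H3C3 was at 158, 164 and 131 CPM in A549 WT B and at 0.133, 0.0623 and 0.116 CPM in HCT116 WT B. For each of these 4 genes the lines did not overlap.

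H3C4, H2AC7 and H2BC7 were the other way round. H3C4 was at 0.425, 0.135 and 0.0962 CPM in A549 WT B and at 43.8, 27.6 and 46.9 CPM in HCT116 WT B (log2(fold change) -7.14, SE 0.48, FDR 1.3e-05). H2AC7 was at 0.408, 0.504 and 0.289 CPM against 20.2, 25.1 and 22.7 CPM (-5.53, SE 0.23, FDR 1.2e-06). H2BC7 was at 1.48, 1.16 and 1.59 CPM against 40.2, 49.8 and 44.6 CPM (-4.74, SE 0.16, FDR 5.4e-07). The 3 genes are neighbours within 3.2 kb (chr6:26196784-26199988), and each promoter window held ATTTGCAT and CCAAT. The windows of H2AC7 and H2BC7 share 278 bases, and CCAAT was in every matched H2A, H2B and H3 promoter. Of the 10 genes present in A549 WT B and below 1 CPM in HCT116 WT B, 9 had a matched promoter. All 9 held CCAAT and 3 held ATTTGCAT. H3C4 was the only one of 11 matched H3 promoters with ATTTGCAT.

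Genes present only in A549 were neighbours too. H2AC16, H1-5, H3C11 and H4C13 follow each other within 8.2 kb (chr6:27865317-27873534), and H2BC3 and H3C3 within 2.6 kb (chr6:26043227-26045869). H1-3, H3C7 and H2BC10 lie within 39.2 kb (chr6:26234212-26273412), a stretch that holds 4 further members (H4C6, H4C7, H2BC9 and H3C8), which stayed below 1 CPM in both wild types. Members beside these runs varied: H2AC4, next to H2BC3, was at 114, 125 and 92.4 CPM in A549 WT B and at 86.5, 92.7 and 95.5 CPM in HCT116 WT B, with overlapping libraries, whereas H4C8, next to H2BC10, was at 214, 211 and 141 CPM against 21.8, 27.1 and 26.5 CPM.

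**Figure D2:**
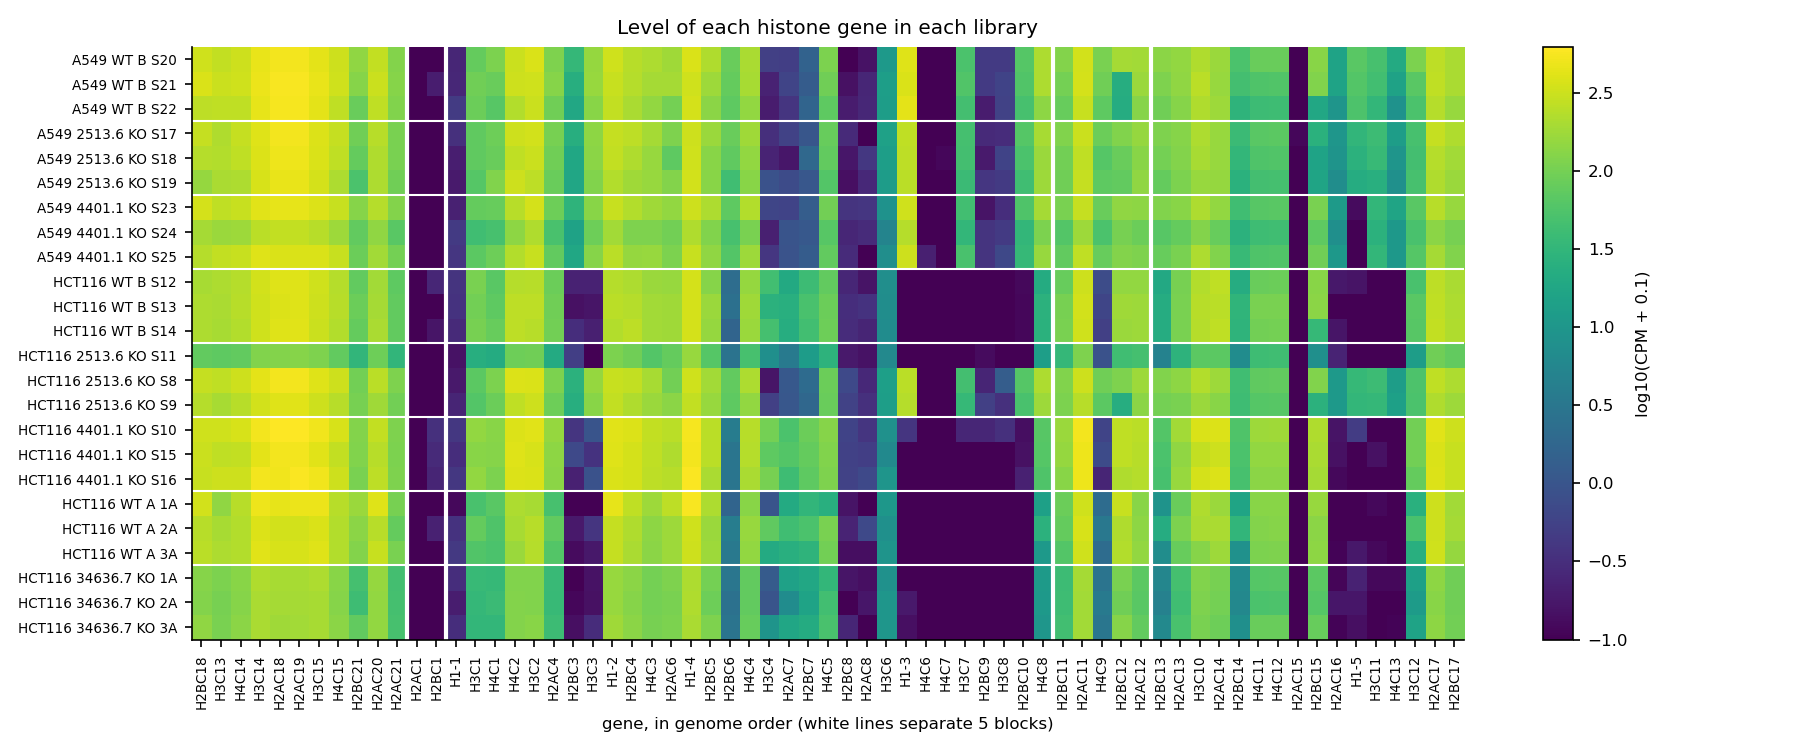
log10(CPM + 0.1) of each of the 65 genes, in genome order on the x axis with white lines between the 5 blocks, in each of the 24 libraries on the y axis. H1-3 and the run H2AC16 to H4C13 are dark in every HCT116 library except S8 and S9, and H3C4, H2AC7 and H2BC7 are dark in the A549 libraries and in S8 and S9.

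By edgeR's quasi-likelihood test, with called genes having FDR < 0.1 and |log2(fold change)| > 1, 15 of 57 members tested were called higher in A549 WT B (17.2% of all genes tested) and 3 were called lower (18.5% of all genes). At FDR < 0.1 alone 38 members were higher (31.2% of all genes) and 4 were lower (31.7%). The median log2(fold change) was 0.65 over the members and -0.02 over all genes. Members expressed in A549 only entered the test through their A549 level, so the counts are a description of the set that could be tested. Among genes present in both lines, H4C8 was at 188 ± 41.1 CPM in A549 and 25.2 ± 2.9 CPM in HCT116 (log2(fold change) 3.18, SE 0.21, FDR 1.3e-05), and H2BC13 at 115 ± 20.6 against 21.4 ± 2.01 CPM (2.70, SE 0.18, FDR 1.3e-05). Most abundant genes differed by less: H2AC19 was at 411 ± 6.62 CPM in HCT116 and 547 ± 15.9 CPM in A549 (0.67, SE 0.06, FDR 4.0e-05). H1-4 differed by 0.29 (SE 0.09, FDR 0.021), with overlapping libraries. SLBP, which binds the stem-loop, was lower in A549 WT B (60.8, 60.7 and 51.1 CPM) than in HCT116 WT B (128, 129 and 126 CPM; log2(fold change) -0.88, SE 0.11, FDR 0.00027).

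The members gave a second view of the libraries that stood apart. At 1 CPM, 8 members were present in all A549 libraries and below it in every HCT116 library except S8 and S9: H1-3, H2AC16, H2BC3, H2BC10, H3C3, H3C7, H3C11 and H4C13. S8 had all 8, at 10.7 to 248 CPM, and S9 had all 8, at 10.9 to 236 CPM. S11 was among the libraries used to pick these 8, so its low values (0 to 0.413 CPM) were fixed by that choice. Over the 65 genes, Pearson's r of log2(CPM + 1) with its A549 WT B mean was 0.994 in S8, 0.996 in S9 and 0.738 in S11. With the HCT116 WT B mean it was 0.727, 0.716 and 0.985. These values describe 65 genes of 1 library each and are not independent of each other. H1-3 was at 248 and 236 CPM in S8 and S9, near A549 MSTRG.2513.6 KO (271, 261 and 254 CPM) and below A549 WT B (383 to 429 CPM). H1-5 was at 34.9 and 32.3 CPM in S8 and S9, at 30.9, 27.7 and 22 CPM in the A549 libraries of this KO and at 54.3 to 66.8 CPM in A549 WT B.

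In HCT116, MSTRG.4401.1 KO had more mRNA of nearly every replication-dependent histone gene. Of 51 members tested, 44 rose at FDR < 0.1 (7.57% of all genes tested rose and 8.72% fell), and all members that passed were higher. The median log2(fold change) was 0.60 over the members and 0.00 over all genes. In 47 of the 51 every KO library was above every WT B library (16.2% of all genes). Medians by class were 0.66 for H1, 0.57 for H2A, 0.65 for H2B, 0.57 for H3 and 0.58 for H4.

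H1-4 was at 560, 539 and 589 CPM in HCT116 MSTRG.4401.1 KO and at 356, 353 and 351 CPM in WT B (log2(fold change) 0.66, SE 0.04, FDR 0.00014). H2AC17, 1 of 5 genes for the same H2A protein, was at 425, 382 and 399 CPM against 258, 270 and 279 CPM (0.57, SE 0.06, FDR 0.0012). H4C2 was at 391, 400 and 387 CPM against 234, 261 and 261 CPM (0.63, SE 0.06, FDR 0.0008). KO and wild-type libraries did not overlap for any of the 3. The 6 members with known polyadenylated transcripts (H1-2, H2AC6, H2BC4, H2BC5, H2BC12 and H2BC21) all rose, by 0.47 to 0.73, and H1-2 went from 239 ± 15.2 to 400.4 ± 23.2 CPM (0.73, SE 0.07, FDR 0.001).

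With the fold change required to pass 1 on the log2 scale, 6 of 51 members were called higher and 0 lower (0.996% and 1.62% of all genes by edgeR). DESeq2 called 4 higher and 0 lower (0.353% and 0.605% of all genes). At an unadjusted p under 0.05, 46 members passed, all of them higher (12.3% of all genes were higher and 13.4% lower). H2BC13 was at 59.1, 52.7 and 48.5 CPM in the KO and at 19.1, 22.6 and 22.5 CPM in WT B (1.31, SE 0.11, FDR 0.00046). H4C8 was at 64.7, 61.8 and 56.6 CPM against 21.8, 27.1 and 26.5 CPM (1.27, SE 0.11, FDR 0.00046). H2AC7 went from 22.6 ± 2.44 to 51.6 ± 9.46 CPM (1.18, SE 0.15, FDR 0.0031) and H3C4 from 39.5 ± 10.3 to 92.3 ± 17.4 CPM (1.22, SE 0.20, FDR 0.0097). H2BC8 and H3C3 were called at means of 0.461 and 0.645 CPM in the KO, and DESeq2 did not call H3C3. With all HCT116 libraries in one fit no member passed FDR < 0.1 by edgeR (4 at an unadjusted p under 0.05, median 0.61). With that fit lacking S8 and S9, 29 rose and 2 of them were called (1% and 0.365% of all genes). With any 1 of the 6 libraries left out 42 or 43 rose (4.53% to 5.66% of all genes). Against WT A in place of WT B, 28 of 50 rose and 1 fell at FDR < 0.1 (9.18% and 9.71% of all genes). Of these members 11 were called higher and 1 lower (4.75% and 5.49% of all genes).

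Genes of S phase moved in the same direction in this KO by less. Of 40 genes on a list of DNA replication and S phase, 19 rose at FDR < 0.1 (median log2(fold change) 0.18), and of 28 histone chaperones 14 rose (median 0.16). Of 15 histone genes on the list of replication-independent ones, 2 rose (median 0.06): H1-10 (0.29, FDR 0.021) and H2AX (0.22, FDR 0.042). SLBP was at 142, 136 and 135 CPM against 128, 129 and 126 CPM (0.10, SE 0.05, FDR 0.23), NPAT at 60, 66.1 and 64.6 against 59.9, 59.5 and 62.7 CPM (0.05, SE 0.05, FDR 0.56), and CASP8AP2 at 62.1, 63.4 and 60.9 against 65.7, 62.2 and 63.5 CPM (-0.05, SE 0.04, FDR 0.55). E2F1, an activator of S-phase genes, had a log2(fold change) of 0.06 (FDR 0.84), and the cyclin E genes CCNE1 and CCNE2 -0.17 (FDR 0.36) and 0.16 (FDR 0.42). Of the 38 genes on the list of histone mRNA transcription and processing, 6 rose and 2 fell (median 0.05), among them E2F2 (0.30, FDR 0.0065), CDC25A, a phosphatase that activates CDK2 (0.37, FDR 0.013), and NCBP2, a subunit of the cap-binding complex (-0.32, FDR 0.0034).

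In A549, MSTRG.4401.1 KO went with lower levels. Of 58 members tested, 23 fell at FDR < 0.1 (22.4% of all genes tested), which is 39.7% of the members. All that passed were lower, while 21.3% of all genes rose, and the median log2(fold change) was -0.43 over the members and 0.12 over all genes. In 16 of 58 every KO library was below every WT B library, against 20% of all genes. The count rested on single libraries: 7 of 57 fell without WT B replicate 1 or replicate 2 (17.4% and 15% of all genes), 12 of 58 without KO replicate 2 (18% of all genes, median -0.26), and 9 of 58 with upper-quartile normalization (15.6% of all genes, median -0.27 over the members and 0.28 over all genes). In these fits the members' share was near or below that of all genes. In others it was higher than that of all genes: 31 of 58 fell without WT B replicate 3 (19.8% of all genes) and 27 of 58 without KO replicate 1 (22.4%). Without KO replicate 3 20 of 58 fell (19.6%), and by DESeq2 33 of 65 (10.5%). H2A genes had the lowest class median (-0.57) and H4 the highest (-0.36).

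H2AC20 was at 190 ± 47.5 CPM in A549 MSTRG.4401.1 KO and at 287 ± 22.8 CPM in WT B (-0.69, SE 0.18, FDR 0.019), and H2AC18 at 369 ± 89.9 against 548 ± 19.5 CPM (-0.65, SE 0.17, FDR 0.022). H3C6, for which no stem-loop was found, was at 8.49, 5 and 7.36 CPM against 10.9, 13.1 and 13 CPM (-0.90, SE 0.21, FDR 0.013). H1-4 was at 324, 224 and 302 CPM against 385, 337 and 360 CPM (-0.43, SE 0.16, FDR 0.065). Of the 6 members with known polyadenylated transcripts, H2BC4 fell (-0.54, SE 0.21, FDR 0.083). Replicate 2 of this KO was the lowest library for H1-4 and H3C6, and had the smallest sum.

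These libraries differed from wild type in other respects. A549 MSTRG.4401.1 KO had 33205007, 25799359 and 26238018 counts, fewer than any A549 WT B library. Mitochondrial genes took 3.499%, 7.87% and 6.93% of counts against 1.96% to 2.37% in WT B, and 31 RNAs without a poly(A) tail (small nuclear and nucleolar RNAs, 7SK, 7SL and the like) took 12.8%, 17.01% and 15.5% against 5.44% to 10.1%. Of 28 such RNAs tested 11 rose at FDR < 0.1 (median 0.91), RN7SK among them (0.91, SE 0.23, FDR 0.017). With mitochondrial counts left out of the total, the histone sum was 9369, 5954 and 8382 CPM in the KO and 10614, 10248 and 8718 CPM in WT B. The part of these differences in the histone result was not tested.

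S-phase genes fell along with the histone genes in A549 MSTRG.4401.1 KO. Of 40 genes on the list, 32 fell and 2 rose at FDR < 0.1 (median -0.57), and 3 passed the fold threshold: UNG, a uracil-DNA glycosylase (-1.26, FDR 0.00011), FEN1, the flap endonuclease (-1.14, FDR 0.019), and RFC3, a clamp loader subunit (-1.11, FDR 0.0024). Of 28 histone chaperones 16 fell and 3 rose (median -0.44), the latter HJURP (0.40, FDR 0.020), TONSL (0.42, FDR 0.039) and CDAN1 (0.69, FDR 0.058), and of 38 genes of histone mRNA transcription and processing 21 fell (median -0.37). SLBP was at 51.1, 31.6 and 41.2 CPM against 60.8, 60.7 and 51.1 CPM (-0.57, SE 0.18, FDR 0.041), and LSM10, a subunit of the U7 snRNP that cleaves histone pre-mRNA, at 12, 8.22 and 10.4 against 14.5, 16.1 and 18.7 CPM (-0.76, SE 0.17, FDR 0.011). E2F1 differed by 0.34 (FDR 0.27) and ZNF473, a U7 snRNP cofactor, by 0.25 (FDR 0.11).

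The effect of MSTRG.4401.1 KO differed between the lines for most members. The interaction, tested at FDR < 0.1 over 12 libraries, was lower in A549 than in HCT116 for 44 of 60 members (15.4% of all genes tested, with 11.6% higher), with a median difference of -1.09. Without HCT116 KO replicate 1 (S10) the count was 33 (12.5% of all genes). For H2AC19 the difference was -1.16 (SE 0.21, FDR 0.0028), for H1-4 -1.12 (SE 0.19, FDR 0.0019), and for H2BC13 -1.81 (SE 0.31, FDR 0.0018). The same test gave a lower effect in A549 for 35 of 40 S-phase genes.

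**Figure D3:**
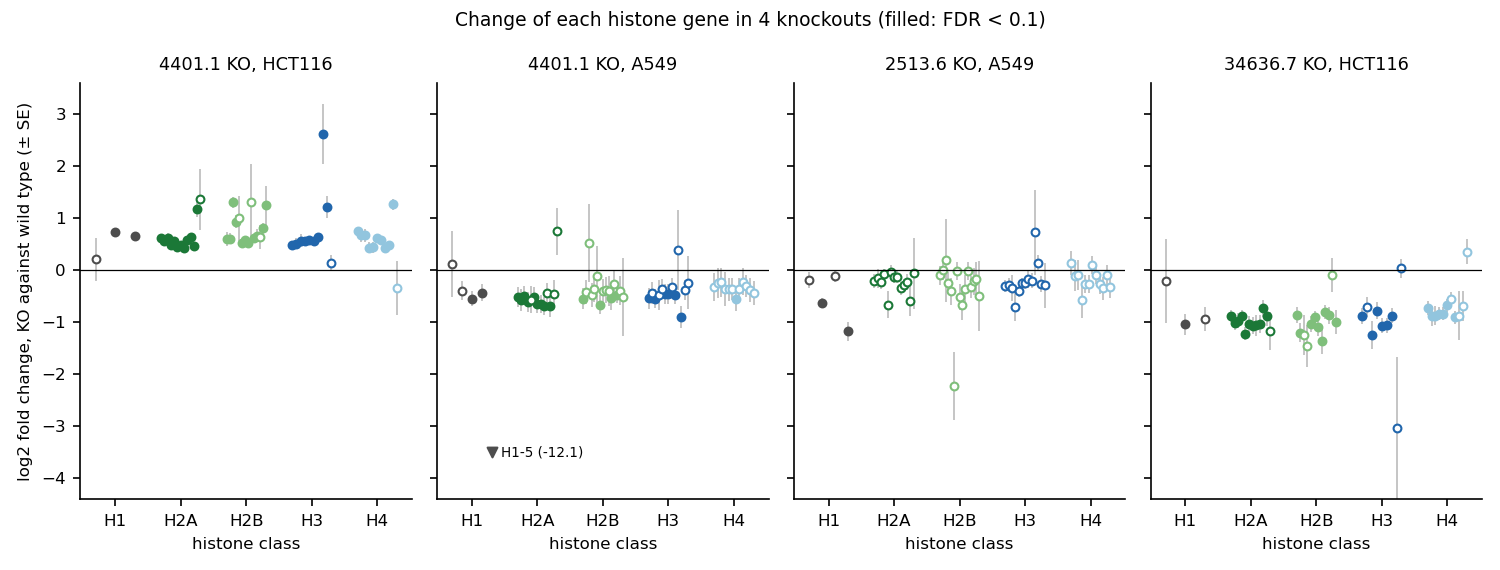
log2(fold change) with its standard error (y axis) of each tested histone gene against wild type, by class (x axis), in 4 KOs; filled points passed FDR < 0.1, and 1 point below the axis range, H1-5, is drawn as a triangle with its value. Nearly all genes lie above 0 in HCT116 MSTRG.4401.1 KO and below 0 in A549 MSTRG.4401.1 KO and HCT116 MSTRG.34636.7 KO.

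H1-5 stood apart from all other members. This linker histone gene (chr6:27866792-27867588, GRCh38) had 3933, 3609 and 2256 counts in A549 WT B, which is 66.8, 60.7 and 54.3 CPM. In A549 MSTRG.4401.1 KO the 3 libraries had 1, 0 and 0 counts. The ratio of WT B to KO was 5223, with an exact 95% interval of 937 to 206321 from counting error only, and edgeR's FDR was 1.1e-06. H1-5 was the only member called in this comparison (4.32% of all genes were called lower and 11.1% higher). Without WT B replicate 1 a further member was called higher (9.18% of all genes), and without KO replicate 1 a further one lower (5.5% of all genes). In HCT116, leaving aside S8 and S9, H1-5 was at 0 to 0.368 CPM.

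The genes beside H1-5 were still present. H2AC16, on one side, was at 11.4, 7.71 and 10.3 CPM in A549 MSTRG.4401.1 KO and at 15.9, 15.5 and 9.41 CPM in WT B. H3C11, on the other side, was at 32.9, 27.6 and 32 CPM against 49.7, 44.4 and 32.4 CPM (-0.54, SE 0.19, FDR 0.056), and H4C13 at 16.4, 10.5 and 10.6 against 20.5, 15.4 and 8.64 CPM. The other linker histone genes of A549 were also present, with H1-3 at 332, 232 and 315 CPM against 404, 383 and 429 CPM (-0.55, SE 0.15, FDR 0.024).

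**Figure D4:**
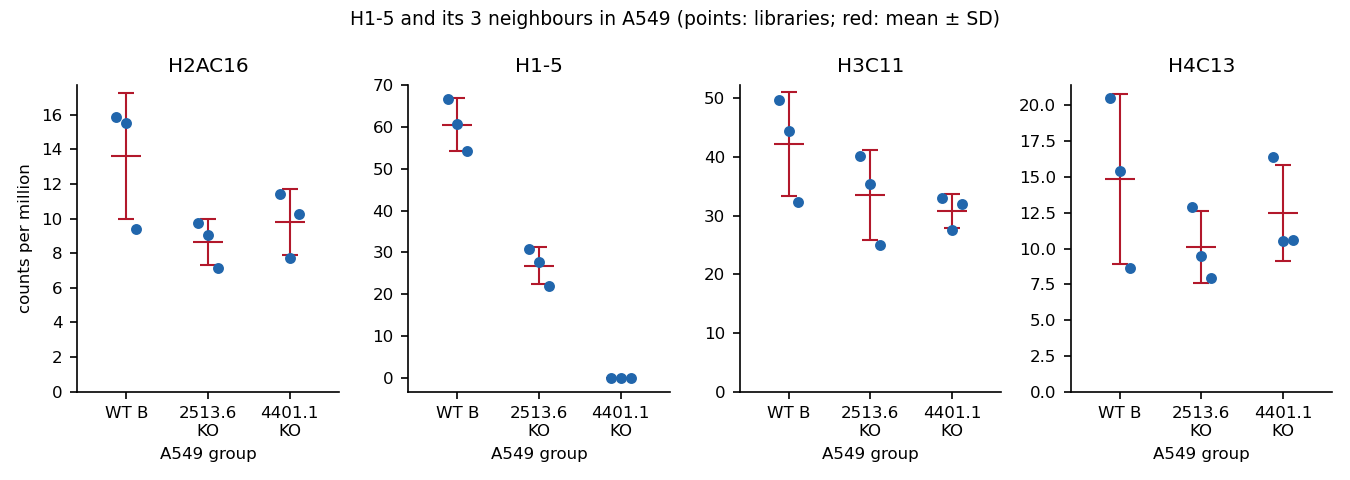
CPM (y axis) of H2AC16, H1-5, H3C11 and H4C13, in genome order, in the 3 A549 groups (x axis), with blue points for libraries and red bars for mean ± SD (n = 3). H1-5 is at 54.3 to 66.8 CPM in WT B, 22 to 30.9 CPM in MSTRG.2513.6 KO and 0.0301 CPM or less in MSTRG.4401.1 KO, while its neighbours stay above 7 CPM in every library.

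In A549 MSTRG.2513.6 KO, 2 linker histone genes were the members that passed the test. H1-5 was at 30.9, 27.7 and 22 CPM against 66.8, 60.7 and 54.3 CPM, and fell by 1.18 on the log2 scale (SE 0.18, FDR 0.014). It was the only one of 57 members called (1.79% of all genes tested were called lower and 1.13% higher). H1-3 was at 271, 261 and 254 CPM against 404, 383 and 429 CPM (-0.63, SE 0.10, FDR 0.014). At FDR < 0.1 H1-5 and H1-3 were the only members that passed by edgeR (3.19% of all genes were lower and 2.77% higher). DESeq2 gave 4 lower (1.89% of all genes were lower and 1.88% higher). A further member was called higher without WT B replicate 1 (0.752% of all genes), and a further one lower without WT B replicate 3 (1.12% of all genes). For neither H1-5 nor H1-3 did KO and WT B overlap. H1-4 was at 325, 335 and 339 CPM against 385, 337 and 360 CPM, and H1-2 at 287, 282 and 229 against 335, 298 and 277 CPM.

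Class medians of H2A, H2B, H3 and H4 were -0.18 to -0.26 in this KO, against -0.03 over all genes. At an unadjusted p under 0.05, 11 members were lower (8.68% of all genes), and in 10 every KO library was below every WT B library (12.1% of all genes). Of 40 S-phase genes none passed FDR < 0.1 by edgeR, with 8 at an unadjusted p under 0.05 and a median of -0.18. SLBP was at 68.3, 58.4 and 53.3 CPM against 60.8, 60.7 and 51.1 CPM (0.06, SE 0.15, FDR 0.90), and LSM11, the partner of LSM10 in the U7 snRNP, at 10.6, 10.5 and 11.9 against 14.7, 14.8 and 17.6 CPM (-0.51, SE 0.13, FDR 0.08).

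For MSTRG.2513.6 KO in HCT116 the value depended on the libraries. With all 3, the median log2(fold change) over 48 members was 0.08 and 1 was called, H2AC7, which was at 3.58, 1.02 and 0.979 CPM in S11, S8 and S9 and at 20.2, 25.1 and 22.7 CPM in WT B (-3.53, SE 0.49, FDR 0.089, with 0.273% of all genes called lower and 0.66% higher, and 0.629% lower and 0.792% higher at FDR < 0.1). Without any 1 of S8, S9 or a WT B library no member passed FDR < 0.1 by edgeR, with 6 to 9 at an unadjusted p under 0.05. No other gene passed in these fits either. DESeq2 with all 3 libraries called 14 members higher and 3 lower (4.96% and 0.971% of all genes). With S8 and S9 left out, 42 of 50 members were called lower and 0 higher (3.49% and 5.2% of all genes tested), with a median of -1.63. With S11 left out, 16 of 59 were called higher and 3 lower (17.1% and 20.1% of all genes), with a median of 0.53. The test assumes that a lone library varies like the other group. The difference from A549 changed likewise: 13 of 60 members had a lower and 2 a higher effect in A549 (7.78% and 2.1% of all genes), and without S8 and S9 the counts were 0 and 32 (5.19% and 5.27% of all genes). Without A549 KO replicate 1, 2 or 3 only 1, 1 and 2 members passed. In these fits 0.885% to 2.01% of all genes were lower and 0.274% to 0.866% higher. Without S8 or S9 6 members passed in each fit, all lower (2.26% and 1.94% of all genes). With S11 left out 38 passed, 34 lower and 4 higher (22.5% and 18.3% of all genes).

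S11 was the library with the lowest level of most members. Of the 45 members at 1 CPM or more in HCT116 WT B, 44 were lower in S11 than in every WT B library (39.2% of 17027 genes with the same filter), and 38 were lower than in every other HCT116 library but S8 and S9 (13.6%). The median ratio of S11 to the WT B mean was 0.338 over these genes and 1.01 over those 17027 genes. H2AC19 was at 125 CPM in S11 and 404 to 417 CPM in WT B, H4C14 at 75.2 against 227 to 245 CPM, and H1-4 at 163 against 351 to 356 CPM. H3C6, without a stem-loop in the window, was at 6.08 against 6.89 to 7.44 CPM. With S11 alone against WT B, the median log2(fold change) was -0.99 over 40 S-phase genes and 0.01 over all genes. It was -0.53 over 28 chaperones and -0.61 over 15 replication-independent histone genes. SLBP was at 86.6 CPM in S11 against 126 to 129 CPM.

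In HCT116, MSTRG.34636.7 KO had less mRNA of most members than WT A. Of 47 members tested, 34 fell at FDR < 0.1 (0.972% of all genes tested), and all that passed were lower. With the fold threshold 14 were called lower (0.607% of all genes). The median log2(fold change) was -0.89 over the members and -0.02 over all genes, and in 40 of 47 every KO library was below every WT A library (10.1% of all genes). Class medians were -0.94 for H1, -1.03 for H2A, -1.02 for H2B, -0.88 for H3 and -0.83 for H4.

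H2AC17 was at 139, 133 and 143 CPM in MSTRG.34636.7 KO and at 316, 318 and 331 CPM in WT A (-1.22, SE 0.12, FDR 0.0059). H2BC21, 1 of the genes with known polyadenylated transcripts, was at 47.3, 41.3 and 76.9 CPM against 166, 136 and 123 CPM (-1.36, SE 0.25, FDR 0.063), and H3C12 at 14.2, 11.9 and 15.9 against 25.5, 50.5 and 24.6 CPM (-1.24, SE 0.27, FDR 0.091). The groups did not overlap for any of the 3, although the spread of H3C12 in WT A came from replicate 2. The annotated genes H2AC17 and H3C12 overlap in position, so their values may not be separate. H3C14 was at 218, 208 and 205 CPM against 499, 392 and 423 CPM (-1.07, SE 0.14, FDR 0.021). H1-2 was at 161, 162 and 181 CPM against 456, 291 and 285 CPM (-1.04, SE 0.20, FDR 0.072). All 6 members with known polyadenylated transcripts fell, by 0.80 to 1.36 on the log2 scale. H3C6, without a stem-loop in the window, was at 8.35, 9.62 and 9.87 CPM against 10.1, 7.93 and 9.01 CPM (0.03, SE 0.19, FDR 0.95).

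The number of calls in this comparison rested on single libraries, while the median did not. With all HCT116 libraries in one fit none of the 54 members tested passed FDR < 0.1 by edgeR (0.27% of all genes were lower, and 29 members passed an unadjusted p under 0.05), with a median of -0.88, and with that fit lacking S8 and S9 39 fell (3.86% of all genes). There were 1, 1 and 7 calls without KO replicates 1, 2 and 3, all lower (0.153%, 0.149% and 0.197% of all genes). Without WT A replicates 1, 2 and 3 there were 7, 15 and 11, all lower (0.617%, 0.866% and 0.525% of all genes). The median over the members stayed between -0.998 and -0.86. At FDR < 0.1 the counts without the KO replicates were also 1, 1 and 7, with the same shares of all genes. At an unadjusted p under 0.05 there were 40 or 41 members. Against HCT116 WT B in place of WT A, 21 members were called lower and 1 higher (6.82% and 7.69% of all genes), and the median was -0.86.

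Other genes of S phase were also lower in MSTRG.34636.7 KO. Of 40, 8 fell at FDR < 0.1 (median -0.55), and POLA2, a subunit of DNA polymerase alpha, was at 13.2, 13.9 and 10 CPM against 20.6, 35.1 and 38 CPM (-1.35, FDR 0.06). Of 14 replication-independent histone genes none passed by edgeR (3 at an unadjusted p under 0.05, median -0.01), and of 38 genes of histone mRNA transcription and processing 1 rose: LSM11, at 32.1, 33.7 and 31.2 CPM against 22.3, 21.5 and 22.2 CPM (0.55, SE 0.12, FDR 0.099). SLBP was at 104, 104 and 101 CPM against 104, 87.5 and 132 CPM.

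**Figure D5:**
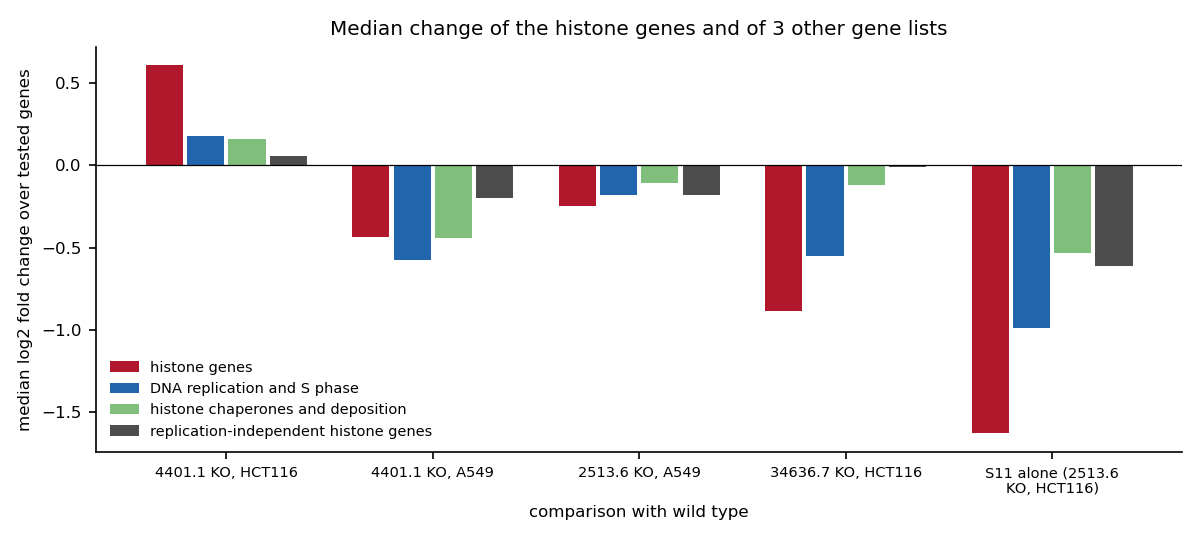
Median log2(fold change) over tested genes (y axis) for the histone genes and 3 other lists (S-phase genes, histone chaperones, replication-independent histones; coloured bars) in 5 comparisons with wild type (x axis), where the last has 1 KO library, S11. In HCT116 MSTRG.4401.1 KO, MSTRG.34636.7 KO and S11 the median of the histone genes (0.60, -0.89 and -1.63) lies farther from 0 than that of the S-phase genes (0.18, -0.55 and -0.99).

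Few members were called between the HCT116 wild types, although the libraries of more members did not overlap. In 14 of 47 members tested every WT A library was above every WT B library, and in 10 every one was below (14.5% and 16.2% of all genes). WT A against WT B gave 1 call in 47 members (3.16% of all genes tested were called higher and 3.9% lower, and without WT A replicate 2 a further 3 members were called lower): H4C9, at 2.11, 3.16 and 2.06 CPM in WT A and at 0.667, 0.53 and 0.416 CPM in WT B (2.16, SE 0.30, FDR 0.003). At FDR < 0.1 alone 4 were higher (5.56% of all genes) and 4 lower (6.71%), and the median was -0.06. Without WT A replicate 2 these were 9 and 9 (7.09% and 7.73% of all genes). Without WT B replicate 1 or 3 they were 2 and 0 (2.81% or 2.86% of all genes higher and 3.77% lower). H2BC21 was higher in WT A (142 ± 22.4 against 80.7 ± 5.89 CPM; 0.80, SE 0.15, FDR 0.013), and H3C1 was lower (62.6 ± 14.5 against 103 ± 6 CPM; -0.73, SE 0.16, FDR 0.029). CASP8AP2, the histone locus body protein, was at 5.55, 7.33 and 7.31 CPM in WT A and at 65.7, 62.2 and 63.5 CPM in WT B (-3.25, SE 0.16, FDR 1.5e-05). It was as low in MSTRG.34636.7 KO (6.73, 4.46 and 8.19 CPM), whereas the histone sum of WT A overlapped that of WT B.

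Some members varied widely between libraries of a group. Among members with a mean of at least 5 CPM, the highest library of a group was typically 1.11 to 1.65 times the lowest (medians of the 7 groups other than HCT116 MSTRG.2513.6 KO, for which it was 4.26). H3C4 was at 0.865, 74 and 20.9 CPM in the 3 libraries of HCT116 WT A, and replicate 2 was also the highest WT A library for H2BC13 (8.91, 22.4 and 7.25 CPM), H4C8 (14.5, 27.1 and 11.1 CPM), H3C12 and H2AC7 (21.1, 42.7 and 24.6 CPM). H2BC12 was at 190, 23.3 and 22.3 CPM in A549 WT B, at 116 and 23.1 CPM in S8 and S9, and at 75.9 CPM or more in the A549 KO libraries. H2BC15 was at 131, 120 and 18.5 CPM in A549 WT B and at 130, 139 and 34.8 CPM in HCT116 WT B, and at 15.7 to 26.6 CPM in all 3 libraries of A549 MSTRG.2513.6 KO. Neither H2BC12 nor H2BC15 passed FDR < 0.1 in an A549 KO, although H2BC15 had a log2(fold change) of -2.23 (SE 0.66, FDR 0.13) in MSTRG.2513.6 KO.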

How the data were processed

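Total RNA of A549 and HCT116 cells was sequenced after ribosomal RNA removal with a stranded kit, in 24 libraries of 8 groups taken from the labels. Per the labels and the study's methods, the authors trimmed reads with Trim Galore 0.6.6, checked them with FastQC 0.11.9, aligned them to GRCh38 with HISAT2 2.2.1 and deposited counts per gene from StringTie. The annotation release and the use of strand in counting are not given in the sources used here. The deposited counts were used as they stand over the 60641 symbols common to the files.

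From these, CPM was computed on library totals of 25799359 to 102261808 counts. Each comparison was fitted over all genes with edgeR 4.0.16 in R 4.3.3 (TMM, filterByExpr, quasi-likelihood test, Benjamini-Hochberg adjustment, here FDR), using the groups compared. Called means FDR < 0.1 and |log2(fold change)| > 1, and for an interaction FDR < 0.1. Folds against a group without counts were computed from 3 counts per library, and ratios with 1 to 3 counts have exact 95% intervals. Replicates of a group differed by more than sampling noise in all 24 pairs.

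Stem-loops, lengths and positions came from a GENCODE annotation of GRCh38, promoters from RefSeq (GRCh38.p14). Motifs were searched on both strands. The tests were checked on simulated data. Alternatives were DESeq2 1.42.0, upper-quartile normalization, other filters on low counts, no fold threshold, all libraries of the cell lines in one fit, the other wild type and leaving out libraries. Genes named are the 2 of each class with the highest mean CPM over the 24 libraries, up to 3 called members a direction in each comparison, members with polyadenylated transcripts, up to 5 members called in opposite directions, regulators and the called genes of other lists, and some chosen after their values were seen. The members and the gene lists were chosen with earlier results of these data known.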

Additional observations from a re-analysis of the deposited data

Results flagged for a closer look

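The effect of MSTRG.4401.1 KO differed between A549 and HCT116, by the interaction test of edgeR at FDR < 0.1, in 44 histone genes, each lower in A549. The difference on the log2 scale was -14.92 for H1-5, -5.82 for H1-3 and -3.15 for H3C3. These 3 genes were near the count floor in HCT116, where replicate 1 of the KO (S10) held 19 counts of H1-5 and 15 of H1-3, and without that library the differences of H1-5 and H1-3 were -9.38 and -0.59. The part of S10 in the result beyond these values was not tested.

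The effect of MSTRG.2513.6 KO differed between the lines in 15 histone genes. The differences were -16.79 for H1-3, -13.85 for H3C7, -13.79 for H3C11, 2.85 for H2BC7 and 3.49 for H2AC7. In all 5 genes S8 and S9 were nearer to A549 WT B than to HCT116 WT B. Without S8 and S9 the difference was -0.61 for H1-3, -0.24 for H3C7, -0.32 for H3C11, 1.75 for H2BC7 and 2.67 for H2AC7.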

How the results depend on the processing

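Numbers of called histone genes are given by comparison, as reported and under each alternative that moved them by more than 1.5 times. The share of all genes called changed between these fits too. In MSTRG.34636.7 KO it went from 0.607% lower to 0.149% without KO replicate 2. In A549 MSTRG.2513.6 KO there was 1, and 2 with DESeq2, with no fold threshold and with all libraries in one fit, and 1 to 2 without single libraries. In A549 MSTRG.4401.1 KO there was 1, and 0 with at least 10 counts required in every library, which removes H1-5, 23 with no fold threshold, and 1 to 2 without single libraries. In HCT116 MSTRG.2513.6 KO there was 1, and 17 with DESeq2, 0 with no filter on low counts, 4 with at least 10 counts, 10 in one fit, 41 in one fit lacking S8 and S9, 2 with the other wild type, 42 without S8 and S9, and 0 to 19 without single libraries. In HCT116 MSTRG.4401.1 KO there were 6, and 44 with no fold threshold, 0 in one fit, 2 in that fit lacking S8 and S9, and 12 with the other wild type. In MSTRG.34636.7 KO there were 14, and 34 with no fold threshold, 0 in one fit, 22 with the other wild type, and 1 to 15 without single libraries. Between the HCT116 wild types there was 1, and 8 with no fold threshold, 0 in one fit, and 1 to 4 without single libraries. Between A549 and HCT116 wild types there were 18, and 7 with at least 10 counts in every library, which leaves fewer genes tested, and 42 with no fold threshold. The interaction of MSTRG.2513.6 KO gave 15, and 3 with at least 10 counts, 32 without S8 and S9, and 1 to 38 without single libraries. Of all genes tested, those called higher and lower in HCT116 MSTRG.2513.6 KO were 4.02% and 0.904% with at least 10 counts. They were 8.17% and 3.45% in one fit, and 2.2% and 1.2% with the other wild type. In one fit they were 0.02% and 0.07% in HCT116 MSTRG.4401.1 KO, and 0.143% and 0.157% in MSTRG.34636.7 KO. With at least 10 counts they were 13.1% and 13.3% between A549 and HCT116 wild types. The fits of all libraries of the lines but S8 and S9 were chosen after seeing the data. The cause of these changes was not tested unless given.

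With the replicate number as a block, calls were 10 in MSTRG.34636.7 KO (15 at FDR < 0.1, against 34 without the block), 1 between the HCT116 wild types and 18 between the lines, and same-numbered libraries of MSTRG.34636.7 KO and WT A had correlations of 0.0115, 0.0354 and 0.0849, each the highest of its KO library and none over 0.1, so the pairing rests on a number alone. Of 280 alternatives for 24 named results, 218 kept direction and call, 62 lost the call and 0 reversed. Depth limits genes below the level of 3 counts, and intervals cover counting error only.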
